A study of Homo sapiens with 6 samples.

Results

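The genes of 3 interferon-inducible antiviral groups, 4 of the IFIT family (IFIT1, IFIT2, IFIT3 and IFIT5), 3 of the IFITM family (IFITM1, IFITM2 and IFITM3) and BST2 alone, which encodes tetherin, were examined in HepG2 cells after knockdown of DGUOK, the mitochondrial kinase that salvages purine deoxynucleosides. They were taken by symbol, and all 8 were found among the 34036 genes listed, of which 24670 had at least 1 count and 14476 had enough counts to be tested. HepG2 is a human line derived from a hepatocellular carcinoma. The siCON group (n = 3 libraries) received a non-targeting control siRNA and the siDGk group (n = 3) received a pool of DGUOK siGENOME siRNAs. The cells of all 6 libraries were therefore exposed to siRNA delivered with Lipofectamine RNAiMAX, and were harvested 48 h later for RNA-seq, with the molecule labelled as polyA RNA. Untransfected cells were not analysed here. The treatment label names the control siRNA for all 6 samples, while titles and library names separate the groups.

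DGUOK itself was therefore examined first. It stood at 54.4, 53.1 and 48.2 CPM (counts relative to library size, with the sizes corrected by TMM) in the siCON libraries and at 9.08, 10.5 and 6.72 CPM in the siDGk libraries; the siDGk values were all lower, as the titles name the groups. Its log2 fold change, siDGk minus siCON, was −2.57 ± 0.19 (SE; adjusted p = 1.64e-08 in edgeR's test). Total counts were 19065684, 18915508 and 10527216 in siCON replicates 1 to 3 and 18613138, 15978314 and 21334876 in siDGk replicates 1 to 3, so siCON replicate 3 was the shallowest library. In siDGk replicate 1, 21057 genes had a count, against 16205 to 17583 in the other libraries. The first principal component of log2 CPM (41.7% of the variance) separated the groups, while on the second (20.6%) siDGk replicates 2 and 3 stood apart, at −61.4 and 63.7, from the 3 siCON libraries, between 1.62 and 4.37. Nothing in the labels says whether replicates were separate cultures, and p-values then measure only the spread between these libraries.

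The members act at different steps of viral infection. IFIT proteins are cytoplasmic and bind RNA whose ends lack the marks of mature cellular messenger RNA, and some of them also contact the translation initiation factor eIF3. IFITM proteins sit in the plasma membrane (mainly IFITM1) or in endosomal membranes (mainly IFITM2 and IFITM3) and hinder fusion of enveloped viruses. Tetherin is anchored in the membrane at both ends and holds budding virions on the cell surface. All are known targets of interferon signaling, which acts through response elements in promoters, and hepatocytes are a well known site of such responses.

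Promoters of 6 of the 8 members had an entry in the RefSeq table (GRCh38.p14), with 2 start sites for IFIT3, and IFIT2 and IFITM2 had none. The 250 bases before each start were searched on both strands for GAAANNGAAA, a core of interferon-stimulated response elements. All 6 members held it, against 3.02% of the 35116 promoters in the table. At least 2 matches were present in each of the 7 windows but that of IFITM1, which held 1, and 0.225% of all promoters held 2 or more. The sequences are shown for the members called below (IFITM1 and BST2), for IFITM3 as the neighbour of IFITM1, and for IFIT1 as the IFIT family's best known member. Matches are in capitals, and each run reads along the gene's strand. A match is a description of letters and says nothing of binding. Bases annotated as untranslated in any Gencode 44 transcript of the gene were left off, except at IFITM1, where the match lies among them and 30 bases around it are given.
IFIT1 (chr10:89392373-89392545, + strand): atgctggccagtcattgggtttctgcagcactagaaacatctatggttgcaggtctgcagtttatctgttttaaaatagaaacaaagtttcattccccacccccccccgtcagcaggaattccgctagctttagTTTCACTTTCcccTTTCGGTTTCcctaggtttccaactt
IFITM1 (chr11:313990-314019, + strand): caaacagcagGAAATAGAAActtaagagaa
IFITM3 (chr11:320861-321110, − strand): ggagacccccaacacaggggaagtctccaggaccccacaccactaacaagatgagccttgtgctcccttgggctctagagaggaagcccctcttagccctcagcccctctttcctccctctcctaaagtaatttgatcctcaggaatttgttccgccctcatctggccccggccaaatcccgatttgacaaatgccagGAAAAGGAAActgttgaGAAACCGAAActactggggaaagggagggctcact
BST2 (chr19:17405631-17405880, − strand): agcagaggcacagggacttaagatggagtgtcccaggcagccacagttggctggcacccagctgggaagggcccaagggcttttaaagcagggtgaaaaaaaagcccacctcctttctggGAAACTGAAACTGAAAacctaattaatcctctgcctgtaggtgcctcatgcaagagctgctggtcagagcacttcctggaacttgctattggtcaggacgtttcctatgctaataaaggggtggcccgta

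In BST2 the pair of matches overlapped, from −130 to −121 and from −124 to −115 relative to the start. In IFIT1 they lay from −116 to −107 and from −103 to −94, on the reverse strand, and in IFITM3 from −52 to −43 and from −35 to −26. The IFITM1 match ran from −40 to −31. A second motif, the palindrome TTCNNNGAA, was found at 1 place in IFITM1 and at 2 places in BST2, the first of which overlapped the other motif, against 6.57% of all promoters with at least 1 match.

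**Figure D1:**
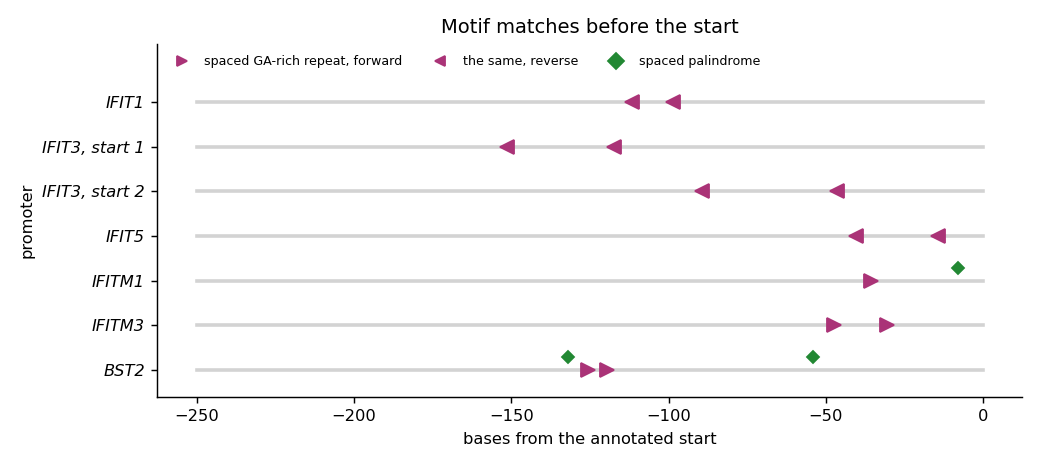
Position of motif matches in the 250 bases before each annotated start (horizontal axis, bases from the start) for the 7 promoter windows of 6 members. Triangles mark GAAANNGAAA, pointing right on the gene's strand and left on the reverse strand, and diamonds mark TTCNNNGAA; the 4 IFIT windows carry reverse matches and the IFITM and BST2 windows forward ones.

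Of the 8 members, 2 were called between groups, IFITM1 higher and BST2 lower in siDGk cells. A call required an adjusted p under 0.05 over all genes tested in edgeR's quasi-likelihood test and an absolute log2 fold change above 0.5. Among all 14476 genes tested, 2041 were called (14.1%), 1074 higher (7.42%) and 967 lower (6.68%), so 2 of 8 rests on very few genes. At the adjusted p alone 2847 genes passed (19.7%), and again 2 members. The median log2 fold change was −0.0024 for the members and 0.02 for all genes tested, with 4 members above and 4 below 0. All siDGk libraries lay above all siCON libraries for IFITM1, and below them for IFITM3 and BST2. Of all genes tested, 36.0% showed such separation, 18.7% with siDGk higher and 17.3% with siDGk lower.

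**Figure D2:**
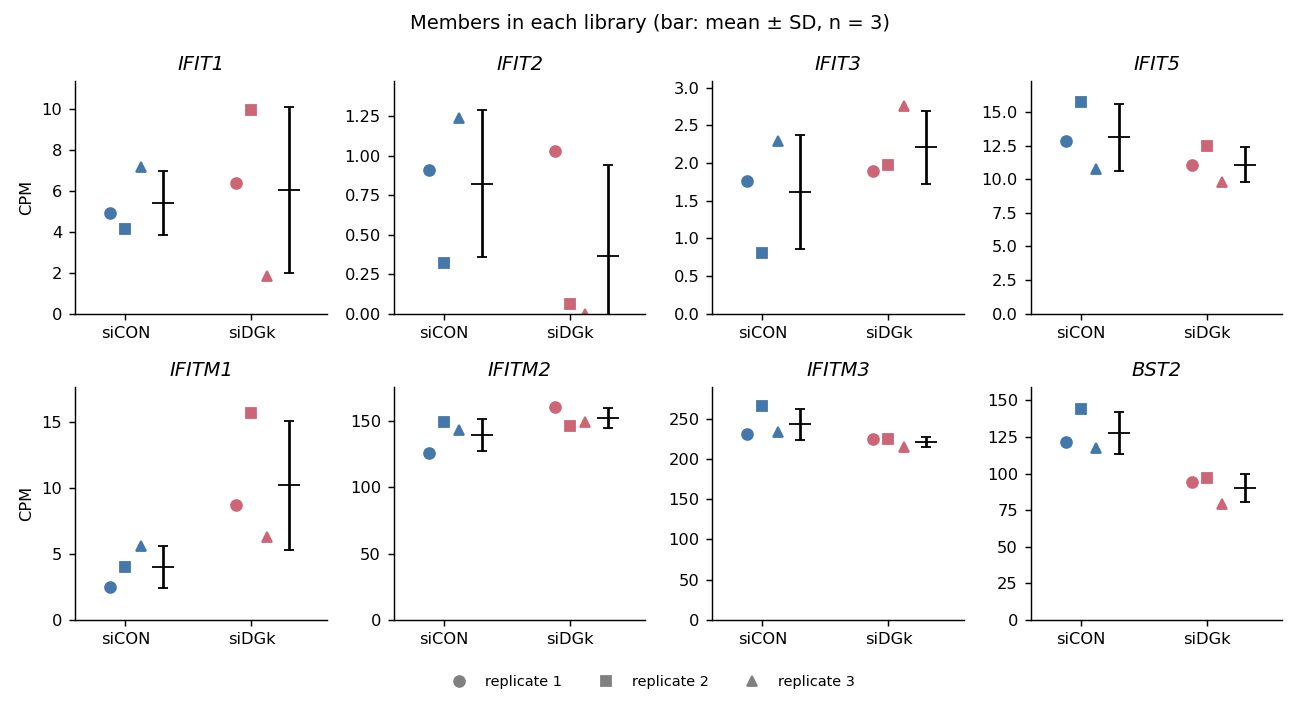
CPM (vertical axes, each from 0) of the 8 members in the 3 siCON and 3 siDGk libraries, with symbols for the replicate number and black bars for the mean ± SD (the lower bar of IFIT2 in siDGk is cut at 0). IFITM1 lies between 2.46 and 5.62 CPM in siCON and between 6.26 and 15.7 CPM in siDGk, while BST2 lies between 118 and 144 CPM in siCON and between 79.2 and 97.2 CPM in siDGk.

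IFITM1 (ENSG00000185885.15; chromosome 11, 310041 to 315272) was the member with the largest increase. It was counted at 2.46, 4.0 and 5.62 CPM in siCON replicates 1 to 3 and at 8.70, 15.7 and 6.26 CPM in siDGk replicates 1 to 3. The highest siDGk value was that of replicate 2, and the lowest, in replicate 3, stood just above the highest siCON value. Means were 4.03 ± 1.58 and 10.2 ± 4.90 CPM (SD, n = 3), and the log2 fold change was 1.36 ± 0.41 (SE), or 2.56-fold, with an adjusted p of 0.0245 in edgeR's test and a 95% interval from 0.50 to 2.22. The adjusted p of edgeR's test no longer passed when a fit left out siCON replicate 1 (log2 fold change 1.09, adjusted p = 0.109), siCON replicate 2 (1.36, 0.0604), siDGk replicate 1 (1.44, 0.0564) or siDGk replicate 2 (0.91, 0.204).

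Some markers of other cell types were unevenly spread over the siDGk libraries. Others, COL1A1, CD3D and CD79A among them, lay in every siDGk library above all siCON libraries. The 8 endothelial genes with a count among 9 listed summed to 1.66, 1.39 and 2.29 CPM in siCON and to 5.35, 66.2 and 4.05 CPM in siDGk. VWF had the highest mean over all libraries through 31.4 CPM in siDGk replicate 2, but was at 0 in replicate 3 of both groups. None of the 3 tested endothelial genes was called by edgeR or DESeq2, and 2 had an unadjusted p under 0.05 in edgeR's test. Among all genes tested 14.1% were called and 4425 of 14476 had such a p. The endothelial median log2 fold change was 3.46. KDR, TEK, ERG, EMCN and CLEC14A were at 0 in every siCON library. The fibroblast and stellate list, of which 8 of 9 genes had a count, summed to 44.2, 41.6 and 36.5 CPM in siCON and 70.1, 78.4 and 47.5 CPM in siDGk. Of its 4 tested genes 1 was called higher and 1 lower by edgeR, beside 7.42% and 6.68% of all genes tested. In edgeR's test 3 had an unadjusted p under 0.05, and the median log2 fold change was 1.93. The list's most abundant gene was ACTA2, and THY1 was at 0 throughout. COL1A1, the chain of fibrillar collagen, rose from 1.17 ± 0.752 to 19.4 ± 1.75 CPM (SD, n = 3), and PDGFRB fell from 11 ± 1.88 to 5.49 ± 1.53 CPM. COL3A1 had means of 0.0178 and 8.02 CPM and COL1A2 of 0.249 and 5.70 CPM, both highest in siDGk replicate 2, and DCN, LUM and PDGFRA were at 0 in all siCON libraries. The leukocyte list, with 14 of 15 genes counted, summed to 1619, 1713 and 1714 CPM in siCON and 1920, 1785 and 1789 CPM in siDGk, nearly all of it LYZ, at 1668 ± 51.0 and 1802 ± 82.1 CPM. The leukocyte median log2 fold change was 0.81 over 9 tested genes, and CD79A was the gene called, higher, which as 1 of 9 is near the share of all genes tested. CD79A stood at 0, 0 and 0.667 CPM in siCON and at 4.21, 9.91 and 9.62 CPM in siDGk (log2 fold change 5.50). PTPRC, which marks leukocytes, stood at 0.481, 2.93 and 0.191 CPM in siCON and at 2.00, 7.94 and 2.67 CPM in siDGk. Of the T cell markers, CD3D had means of 4.31 and 9.54 CPM, CD3E of 0.731 and 1.57 CPM and CD2 of 0.355 and 2.40 CPM, with CD3E and CD2 highest in siDGk replicate 2. Myeloid markers at low counts were mixed: CD163, ITGAM and CSF1R had counts in siCON alone, CD14 had means of 1.86 and 0.656 CPM, FCER1G of 1.45 and 1.16 CPM and CD68 of 0.356 and 0.655 CPM. IFITM1 and the endothelial and fibroblast sums were all highest in siDGk replicate 2, and the part of these markers in the IFITM1 result was not tested.

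BST2 (ENSG00000130303.12; chromosome 19, 17402939 to 17405630) moved the other way. Tetherin transcripts stood at 122, 144 and 118 CPM in siCON replicates 1 to 3 and at 94.4, 97.2 and 79.2 CPM in siDGk replicates 1 to 3. No siDGk library reached the lowest siCON value. The means were 128 ± 14.2 and 90.3 ± 9.68 CPM (SD, n = 3), and the log2 fold change was −0.50 ± 0.11 (SE; adjusted p = 0.00283 in edgeR's test), with a 95% interval from −0.73 to −0.27. The fitted value lies at the fold change threshold, so the call turns on small differences in scaling although the adjusted p passed in every fit run. The threshold was missed when siCON replicate 2 (−0.41) or siDGk replicate 3 (−0.43) was left out, with shrunken DESeq2 fold changes (−0.499), without a count filter (−0.496) and with TMM factors taken before the filter (−0.497), a setting chosen after seeing the data.

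**Figure D3:**
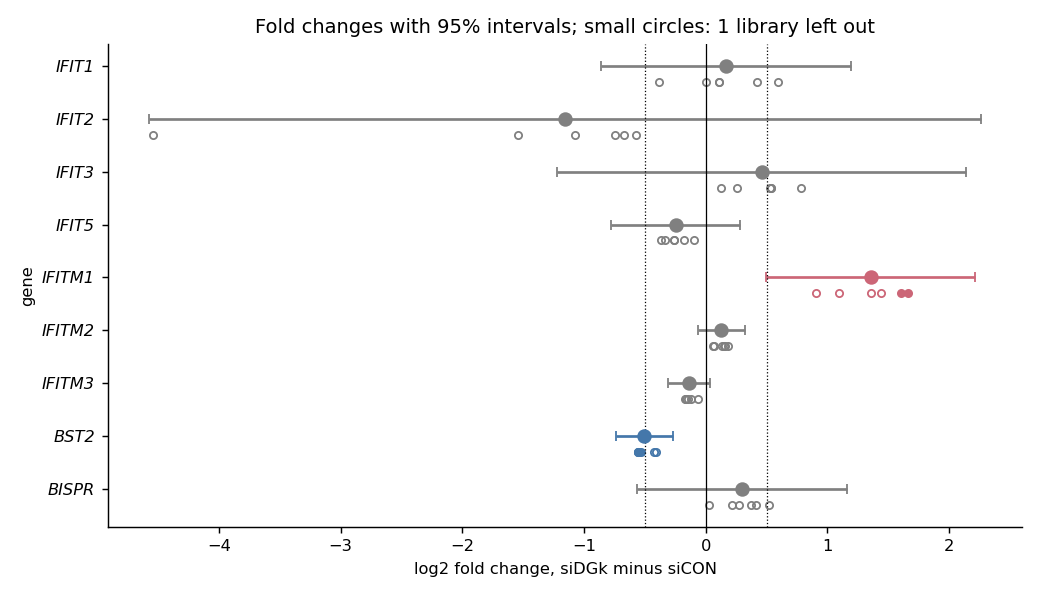
Log2 fold change (horizontal axis, siDGk minus siCON) of the 8 members and of BISPR, with 95% intervals from edgeR's test; red is called higher, blue called lower and grey not called, and dotted lines mark the threshold of 0.5. Small circles are fits with 1 library left out, filled where the gene was called: 2 of 6 for IFITM1 and 4 of 6 for BST2.

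BISPR, a long noncoding RNA, starts 56 bases from BST2 and is transcribed away from it. BISPR was counted at 5.23, 5.86 and 2.57 CPM in siCON and at 6.16, 5.85 and 4.97 CPM in siDGk, so that the groups overlapped. Its log2 fold change was 0.30 with a 95% interval from −0.56 to 1.16 (adjusted p = 0.697 in edgeR's test). Counts of BST2 per count of BISPR were 23.3, 24.6 and 45.7 in siCON and 15.3, 16.6 and 15.9 in siDGk. The difference between the fold changes of BST2 and BISPR was not tested.

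IFITM2 and IFITM3 were the abundant members of their family. IFITM2 stood at 126, 149 and 143 CPM in siCON and at 161, 147 and 150 CPM in siDGk, with groups that overlapped. Its log2 fold change was 0.13, with a 95% interval from −0.07 to 0.32 (adjusted p = 0.390 in edgeR's test). IFITM3, the member best known for restricting influenza virus, stood at 231, 265 and 234 CPM in siCON and at 225, 225 and 215 CPM in siDGk. All siDGk values of IFITM3 were lower, by less than the test's threshold (log2 fold change −0.13, 95% interval from −0.31 to 0.04, adjusted p = 0.301 in edgeR's test). The intervals of both genes lie inside a log2 fold change of 0.5 in either direction.

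Within the family the makeup of the counts differed between groups. IFITM1 made up 0.685%, 0.955% and 1.47% of the IFITM counts in siCON and 2.21%, 4.05% and 1.69% in siDGk. IFITM3 made up 64.3%, 63.4% and 61.1% in siCON and 57.0%, 58.2% and 57.9% in siDGk, and counts of IFITM3 per count of IFITM2 were 1.84, 1.78 and 1.63 against 1.40, 1.54 and 1.43. The siDGk libraries lay wholly on the upper side for the IFITM1 share and wholly on the lower side for the other quantities, which were described and not tested. Summed over the family, the level had a mean of 386 ± 30.0 CPM for siCON libraries and 384 ± 12.4 CPM for siDGk libraries (SD, n = 3). With IFITM2 and IFITM3 added into 1 feature, the log2 fold change was −0.03 (adjusted p = 0.841 in edgeR's test).

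The IFITM paralogs share sequence, and the authors' counting could split or drop their reads. The shares below count words found in any other gene, whether a paralog or a gene overlapping at the same locus. Of all 75-base words in annotated transcripts, 26.7% for IFITM1, 14.3% for IFITM2 and 24.2% for IFITM3 also occurred in transcripts of another gene, against 7.48% for IFIT2, 0.379% for IFIT3 and 0 for IFIT1, IFIT5 and BST2. With 50-base words, since the read length is not given, the shares were 35%, 21.7% and 30.8% for the IFITM genes in the same order, 9.29% for IFIT2, 3.17% for IFIT3, 1.17% for IFIT1 and 0 for IFIT5 and BST2. The gene that shared most with IFITM1 was IFITM3, at 10.7% of the 75-base words of IFITM1. IFITM2 and IFITM3 each shared most with IFITM1, at 9.78% and 9.23% of their 75-base words. All shared 75-base words of IFIT2 were shared with AL353751.1, and all those of IFIT3 with LIPA. AL353751.1 overlaps IFIT2 and LIPA overlaps IFIT3, so these shares are not sharing between paralogs. A protein-coding gene annotated on the same strand, and not used here, shares 21.1% of the exon bases of IFITM1, and AL353751.1, with 0 counts in all libraries, shares 12.1% of those of IFIT2. In addition, 10.6% of the exon bases of IFITM1 and 14.2% of those of IFITM3 overlap antisense noncoding genes, AC136475.2 and AC136475.5. AC136475.2 was counted at 0.599 ± 0.540 CPM in siCON and 0.951 ± 0.266 CPM in siDGk (SD, n = 3). Without strand, reads of a gene and its antisense partner cannot be told apart, and the IFITM and IFIT2 values are uncertain for these reasons.

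None of the 4 IFIT genes was called by edgeR or by DESeq2, and 0 had an unadjusted p under 0.05 in edgeR's test. Among all genes tested 14.1% were called and 4425 of 14476 had such a p, so that 0 of 4 says little about the family. The groups overlapped for each of the 4 IFIT genes, as they did for 9268 of the 14476 genes tested. IFIT1, which recognises RNA lacking methylation next to the cap, was counted at 4.91, 4.10 and 7.15 CPM in siCON and at 6.38, 9.91 and 1.84 CPM in siDGk. Its highest and lowest values were thus both siDGk libraries, replicates 2 and 3. The log2 fold change of 0.17 had a 95% interval from −0.86 to 1.19 (adjusted p = 0.874 in edgeR's test), and it turned to −0.39 without siDGk replicate 2 and to 0.59 without siDGk replicate 3.

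IFIT5, which binds RNA with triphosphate ends, was the most abundant IFIT transcript, at 12.8, 15.7 and 10.8 CPM in siCON and 11, 12.4 and 9.80 CPM in siDGk. Its log2 fold change was −0.25, with a 95% interval from −0.78 to 0.28 (adjusted p = 0.577 in edgeR's test). IFIT3, a partner that stabilises IFIT1 on RNA, was counted at 1.76, 0.799 and 2.29 CPM in siCON and at 1.89, 1.97 and 2.76 CPM in siDGk. The interval was wide, from −1.22 to 2.14 around 0.46 (adjusted p = 0.771 in edgeR's test).

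IFIT2 was close to the limit of detection, with 17, 6 and 13 counts in siCON and 19, 1 and 0 counts in siDGk. The 0 in siDGk replicate 3 allows up to 0.138 CPM, counting error only. Of the siDGk counts nearly all lay in replicate 1, the library with the most genes counted. The log2 fold change of −1.15 had a 95% interval from −4.57 to 2.26 (adjusted p = 0.709 in edgeR's test), and it moved to −4.54 without siDGk replicate 1 (adjusted p = 0.304). Summed, the IFIT genes reached 20.4, 20.9 and 21.4 CPM in siCON and 20.3, 24.4 and 14.4 CPM in siDGk. The sum thus varied more among siDGk libraries (SD 5.02) than among siCON libraries (SD 0.523).

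Per kilobase of annotated exon, the levels fell into a high and a low group. In siCON cells BST2 was highest at 116 ± 12.9 CPM per kilobase (SD, n = 3), followed by IFITM2 at 86.7 ± 7.57 and IFITM3 at 85.5 ± 6.78, whose ranges overlapped. A 28.5-fold step led down to IFIT5 at 3.00 ± 0.569, IFITM1 at 2.42 ± 0.951 and IFIT1 at 1.17 ± 0.342, neighbours whose ranges overlapped. IFIT3 at 0.319 ± 0.149 and IFIT2 at 0.190 ± 0.108 were lowest and overlapped as well. In siDGk cells IFITM2 stood first at 94.8 ± 4.67, before BST2 at 82.0 ± 8.79 and IFITM3 at 77.9 ± 2.16, and IFITM1 stood before IFIT5, at 6.13 ± 2.94 against 2.54 ± 0.302. These orders depended on the length used. With the longest transcript IFITM3, IFITM2 and BST2 followed each other in both groups, at 233, 138 and 128 in siCON and at 212, 151 and 90.2 in siDGk, and IFITM1 stood before IFIT5 already in siCON, at 4.77 against 3.24.

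Of the family's relatives (14 listed, 8 found in the table and 7 with a count), only TMEM91 had enough counts to be tested, and it was called by neither edgeR nor DESeq2 (log2 fold change −1.38, adjusted p = 0.357 in edgeR's test). IFIT1B, which lies within the IFIT cluster, was counted in siCON replicate 1 and siDGk replicate 1 alone.

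The genes around the members were followed along the chromosomes. In the IFIT cluster on chromosome 10, LIPA, which encodes lysosomal acid lipase and overlaps the cluster on the other strand, fell from 127 ± 5.29 to 60.4 ± 3.33 CPM (SD, n = 3; log2 fold change −1.07). PANK1, which encodes a pantothenate kinase of coenzyme A synthesis, fell from 19.9 ± 2.95 to 10.9 ± 2.13 CPM (−0.88). FAS and SLC16A12 were not called, and CH25H had no count. LIPA exons share 1.5% of the exon bases of IFIT2 and 1.86% of those of IFIT3. PGGHG, B4GALNT4 and PKP3, beside the IFITM cluster, were not called, although B4GALNT4 passed the adjusted p alone at a log2 fold change of 0.33. On the far side of BST2, MVB12A and TMEM221 were not called. MVB12A starts at 17405722, within the span of BISPR (17405686 to 17419324) and on the same strand. How reads were divided between MVB12A and BISPR was not examined.

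**Figure D4:**
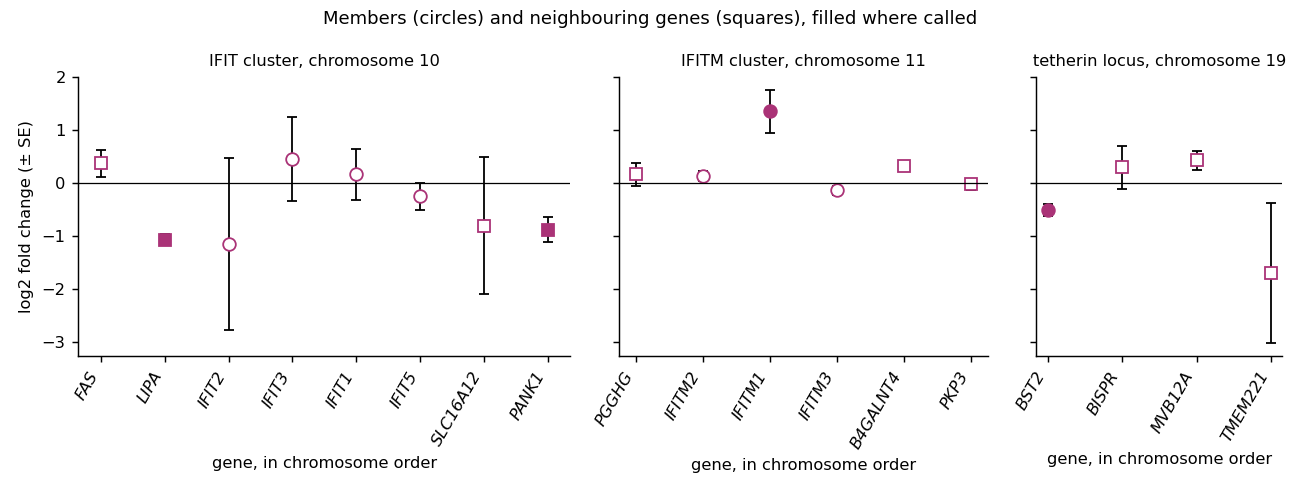
Log2 fold change ± SE (vertical axis) of members (circles) and neighbouring genes with enough counts (squares), in chromosome order for the IFIT cluster, the IFITM cluster and the BST2 locus. Filled symbols are called: LIPA, PANK1, IFITM1 and BST2.

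Upstream of the members, most interferon ligand genes were not among the genes listed. Of 21 ligand genes listed, 3 were found in the table, 2 had a count and 0 had enough to be tested. IFNG stood at 0 in all siCON libraries and at 1.19, 2.09 and 0 CPM in siDGk, and IFNL1 was counted at 0.427 CPM in siCON replicate 1 and 0.216 CPM in siDGk replicate 1. The 6 receptor genes were all tested, and 0 were called by edgeR or DESeq2, beside 14.1% of all genes tested by edgeR, and the median log2 fold change was 0.04. An unadjusted p under 0.05 was reached by 2 of the 6, a share near that of all genes tested (4425 of 14476). IFNAR1, a chain of the type I receptor, had a mean of 44.5 ± 3.26 CPM among siCON libraries and of 55.8 ± 7.25 CPM among siDGk libraries (SD, n = 3; log2 fold change 0.33). IFNLR1, of the type III receptor and the other gene at such a p, lay the other way, at 13.1 ± 5.14 and 7.73 ± 0.633 CPM (log2 fold change −0.76). IFNGR1 and IFNGR2, the most abundant of the receptors, had log2 fold changes of 0.03 and −0.11.

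Among genes that carry or restrain the signal, 13 of 14 were tested and 0 were called by edgeR or DESeq2, with 5 at an unadjusted p under 0.05, beside 14.1% called and 4425 of 14476 at such a p among all genes tested, and a median log2 fold change of 0.02. Of these 5, JAK1 (log2 fold change 0.28) and IRF3 (0.37) lay higher in siDGk. SOCS1 (−1.04), SOCS3 (−0.71) and USP18 (−0.71), which restrain the signal, lay lower. TYK2 had a log2 fold change of −0.05. Sensors and adaptors of cytoplasmic nucleic acids had 2 of 9 genes called by edgeR, both higher, and 1 called by DESeq2. Among all genes tested by edgeR 14.1% were called, 7.42% higher. DDX58, which encodes the RNA sensor RIG-I, stood at 17.3, 10.9 and 17.8 CPM in siCON and at 20.9, 26.0 and 24.6 CPM in siDGk (log2 fold change 0.64, adjusted p = 0.0477 in edgeR's test). IKBKE, a kinase that activates IRF3, rose from 7.84 ± 1.99 to 14.0 ± 1.89 CPM (log2 fold change 0.85). MAVS and TBK1, further steps of that route, were not called, and the median of the list was 0.11.

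The longest list held other interferon-stimulated effectors. Of its 63 genes 54 were tested, and 4 were called higher and 1 lower, a count no larger than the share among all genes tested gives (7.42% higher and 6.68% lower), with a median log2 fold change of 0.08 against 0.02 for all genes tested. OAS1, which makes the activator of RNase L, stood at 56.2, 59.2 and 52.0 CPM in siCON and at 138, 138 and 135 CPM in siDGk (log2 fold change 1.29, adjusted p = 3.43e-08 in edgeR's test). ISG20, an exonuclease, rose from 15.3 ± 3.72 to 34.1 ± 4.34 CPM and ISG15, a ubiquitin-like modifier, from 41.3 ± 2.82 to 67.6 ± 19.7 CPM, with its highest value in siDGk replicate 2. PML, the scaffold of nuclear bodies, rose from 10.3 ± 1.17 to 17.1 ± 2.76 CPM. LGALS3BP, a secreted glycoprotein and the most abundant gene of the list, fell from 1009 ± 14.7 to 702 ± 15.5 CPM (log2 fold change −0.52). Of the genes not called, ADAR, TRIM25, TAP1 and LY6E were the most abundant. The number called was 8 without siDGk replicate 2, of which 5 were lower, and the list's median then turned to −0.14.

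**Figure D5:**
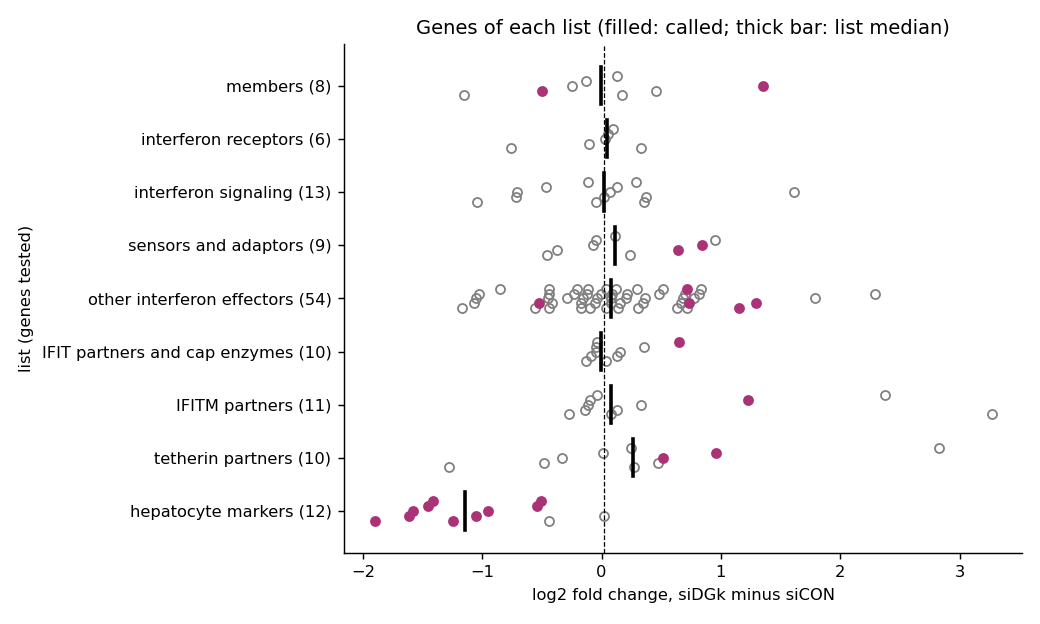
Log2 fold change (horizontal axis) of each tested gene in the members and in 8 lists, with the number tested in brackets. Filled circles are called genes, thick bars list medians and the dashed line the median of all genes tested (0.02); the hepatocyte markers lie lowest, at a median of −1.15.

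Genes that work with the members were read in the same way. For the IFIT proteins, 1 of 10 genes of the cap and of RNA turnover was called, beside 14.1% of all genes tested: CMTR2, a methyltransferase of the messenger RNA cap, rose from 17.3 ± 1.98 to 27.1 ± 2.81 CPM (SD, n = 3; log2 fold change 0.65). EIF3E, an eIF3 subunit bound by IFIT proteins, passed the adjusted p alone at a log2 fold change of 0.36. EIF3C, another subunit on the list, had a log2 fold change of −0.05 and was not called. For the IFITM proteins, 1 of 11 partner genes was called, beside the same share of all genes, the tetraspanin CD9, which rose from 16.9 ± 4.27 to 39.5 ± 2.80 CPM (log2 fold change 1.23). CD63, another tetraspanin, passed the adjusted p alone at 0.33.

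Tetherin is removed from the surface through ubiquitin ligases, clathrin adaptors and the ESCRT machinery. The list of tetherin partners held such genes and also partners of other roles, TRAF6, MAP3K7, ARHGAP44 and CD44, none of them called. Of its 10 tested genes, 2 were called, both higher, beside 7.42% called higher among all genes tested. With no fold change threshold 4 of the 10 passed the adjusted p, beside 19.7%. An unadjusted p under 0.05 in edgeR's test was reached by 6, beside 4425 of 14476. All siDGk libraries lay higher for 5 genes and lower for 2, beside 18.7% and 17.3%. The median log2 fold change was 0.26. HGS, an ESCRT subunit that sorts ubiquitinated cargo, rose from 101 ± 14.2 to 196 ± 18.6 CPM (SD, n = 3; log2 fold change 0.96, adjusted p = 3.23e-06 in edgeR's test). AP1M1, a subunit of a clathrin adaptor complex, rose from 44.4 ± 9.22 to 63.0 ± 9.04 CPM (log2 fold change 0.51). TSG101 and MARCH8 passed the adjusted p alone, in opposite directions.

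Hepatocyte markers moved with the same contrast. Of 12 genes, 10 were called lower and none higher, beside 6.68% lower among all genes tested, with a median log2 fold change of −1.15. SERPINA1, among the most abundant, was not called, at 7770 ± 374 and 7875 ± 553 CPM (SD, n = 3; log2 fold change 0.02). ALB had the highest mean in siCON, at 16113 CPM, but in siDGk stood at 5401 CPM, below SERPINA1. Summed, the 12 genes reached 61064, 56515 and 54539 CPM in siCON and 33584, 29387 and 27852 CPM in siDGk, and none was at 0 in all libraries. Hepatocyte markers were thus counted in every library, and the identity of the line was not tested. In bulk RNA, fewer cells of a type and less RNA per cell cannot be told apart. The part of this shift in the values of BST2 and IFITM1 was not tested.

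The 2 genes with the nearest profile are given for 7 of the members, out of 13279 other genes (13280 for IFIT2) at a mean of at least 1 CPM, by the root mean square difference of centered log2 CPM over the 6 libraries. For BST2 they were TACC1 (0.0571) and TSPAN15 (0.0624), and for IFITM1 they were KRT8P11 (0.176) and XRCC2 (0.210). IFITM3 was nearest to ST6GALNAC6 (0.0232) and TOMM20 (0.0260). IFIT5 was nearest to ZCCHC9 and SETD1A, IFIT1 to OSBPL7 and PRKCE, IFIT3 to PTCD1 and STEAP2, and IFIT2, at a distance of 0.536, to HLA-F-AS1 and then to CNNM1. None of the genes named here as nearest was itself a member.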

How the data were processed

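Gene counts of 6 HepG2 libraries were used as deposited. The authors aligned reads to GRCh38 with a Gencode annotation by STAR 2.6.1 and counted them with featureCounts 1.6.5 at its default settings and a quality minimum, with no strand option stated, and the submitters' processing notes also name Bowtie 1.1.2. Read length and library kit are not given in the sources used here. Genes were filtered with filterByExpr (minimum count 10), normalized by TMM on the deposited totals, and compared with edgeR 4.0.16 (R 4.3.3) through its robust quasi-likelihood test with condition as the sole term and Benjamini-Hochberg adjustment over all genes tested. The thresholds for a call are 0.05 for the adjusted p and 0.5 for the size of the log2 fold change. Lengths, coordinates, overlaps and neighbours come from Gencode 44 on GRCh38, which gave lengths for 98.9% of genes with a count. The authors counted on an earlier Gencode release, whose exons and overlaps can differ. Intervals are at 95%, and floors at 3 counts cover counting error only. Alternatives were DESeq2 1.42.0, other normalizations, no filter, a replicate block and each library left out, and 3 fits added after seeing the data. The edgeR and DESeq2 steps were tested on simulated data. Both tools called every changed gene with high counts there and missed some with low counts, DESeq2 more of them, and the requirement for passing was limited to high counts after this was seen.

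The members and the 13 lists beside them were chosen with earlier results of these data known. Named genes are the members, DGUOK, BISPR and chromosome neighbours, every called gene of a list with up to 4 of its most abundant others, and the 2 nearest profiles. Marker genes named beside their lists' sums were in part chosen after their values were seen. The same holds for IFNG, IFNL1, IFNLR1, IFIT1B, SOCS1, SOCS3, USP18, EIF3C, TRAF6, MAP3K7, ARHGAP44 and CD44. Lists are described by counts and medians, with no set test. Some values that this rule would name are not reported here.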

Additional observations from a re-analysis of the deposited data

How the results depend on the processing

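Members called numbered 2 and fell to 1 with shrunken DESeq2 fold changes, without a count filter and with TMM factors taken from all genes before the filter, in each case because BST2, at −0.499, −0.496 and −0.497, stayed inside the fold change threshold. It ranged from 0 to 2 with 1 library left out. BST2 then ran from −0.56 to −0.41 and IFITM1 from 0.91 to 1.66, both with 1 direction throughout. IFIT1 ran from −0.39 to 0.59, IFIT2 from −4.54 to −0.57, IFIT3 from 0.13 to 0.78, IFIT5 from −0.36 to −0.09, IFITM2 from 0.06 to 0.18 and IFITM3 from −0.17 to −0.07, with none called. Genes called numbered 1704 to 1935 with 1 library left out, and other interferon effectors called 4 to 8, whose median ran from −0.14 to 0.12. That count was 8 without a count filter, where the median of all genes moved from 0.02 to 0.14 as more genes were tested. The cause of the other shifts was not tested.

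The 3 fits chosen after seeing the data gave 2032 calls with library sizes recomputed after the filter, 2050 with TMM before the filter and 2322 without a separate dispersion step. The first of these was run before the deposited totals were adopted, which was done after its results had been seen; IFITM1 and BST2 (−0.51) were called with either.

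With replicate number as a block, 2077 genes were called, other interferon effectors called were 8, IFIT1 turned to −0.0312 and IFIT2 moved to −2.34, while both member calls held. Same-numbered libraries correlated at 0.0240, 0.0166 and −0.00224 after group means were removed. Libraries of different number correlated at −0.0229 to 0.00213. With 3 libraries per group, these values cannot decide whether the numbers pair libraries.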
